A study of Mus musculus with 9 samples.

Results

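Among the 1247 mouse miRNAs on the array, 63 carry a family number that is known mainly from tissues other than brain, and their signal in hippocampus is described here. They were chosen by a rule on family numbers in their names, with every arm on the array included. The muscle group (miR-1, miR-133, miR-206, miR-208 and miR-499) has 18 members, the liver and gut group (miR-122, miR-192, miR-194 and miR-215) 9, the pancreas group (miR-216, miR-217 and miR-375) 8, the skin group (miR-203 and miR-205) 4, and the pluripotency group (miR-290 to miR-295, miR-302 and miR-367) 24. Hippocampal RNA came from 9 male C57BL/6 mice, about 8 weeks old when obtained, with 1 array per mouse. Of these, 3 aspirated saline through the oropharynx (control), 3 aspirated PM2.5, the fine fraction of airborne particles, at 1 mg/kg bw and the remaining 3 received 5 mg/kg bw, on alternate days over 4 weeks. No allele or transgene is given for any group. The particles entered through the airway, and the whole hippocampus was extracted, so that in such a bulk sample fewer cells of a type and less RNA per cell cannot be told apart. All p-values measure the spread between these 9 mice.

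A miRNA is a short RNA cut from one arm of a hairpin, and bases 2 to 8 from its 5′ end, the seed, do most of the target pairing. The miR-1 and miR-133 families are transcribed with the contractile programme of skeletal and heart muscle, and miR-208 and miR-499 lie in introns of myosin heavy chain genes. miR-122 is the main miRNA of hepatocytes, miR-192, miR-194 and miR-215 are enriched in liver, gut and kidney epithelium, miR-216, miR-217 and miR-375 in the exocrine and endocrine pancreas, and miR-203 and miR-205 in stratified epithelium. The miR-290 to miR-295 and miR-302 and miR-367 clusters are the hallmark miRNAs of pluripotent cells, in which their 3p arms are the main products.

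The sequences that the results turn on are shown from RefSeq (GRCm38.p6), which held 48 of the 63 members and 1017 of all 1247 names, with the seed in capitals. The liver and gut seed group is shown because one of its miRNAs was detected on every array and the other on none. miR-192-5p lies at chr19:6264857-6264877 on the plus strand and outside any other annotated gene, and miR-215-5p at chr1:185313610-185313630, within the span of Iars2, which encodes a mitochondrial isoleucyl-tRNA synthetase. They are identical at 18 of 21 positions.
miR-192-5p: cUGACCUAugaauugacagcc
miR-215-5p: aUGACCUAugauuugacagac

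Another 2 sequences are those of detected members with no seed relative among the 1017 names that had a sequence. miR-194-5p has 2 gene copies, one beside miR-192 at chr19:6264658-6264679 and one beside miR-215 at chr1:185313325-185313346, and miR-203-3p lies at chr12:112130927-112130948.
miR-194-5p: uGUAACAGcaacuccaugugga
miR-203-3p: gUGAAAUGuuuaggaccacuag

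The miR-302 cluster lies within the span of Larp7 on chromosome 3. Its 3 passenger arms that share a seed are shown because only miR-302c-5p (chr3:127545368-127545389) was called detected among them. The fourth, miR-302a-5p (chr3:127545501-127545522), has another seed and was called on 0 arrays, with -5.76 to 0.956 scanner units.
miR-302c-5p: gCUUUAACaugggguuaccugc
miR-302b-5p: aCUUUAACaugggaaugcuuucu
miR-302d-5p: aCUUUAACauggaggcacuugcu

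The largest seed group among the 48 members with a sequence joins 5 miRNAs of both pluripotency clusters, and 0 of the 5 was detected.
miR-291a-3p: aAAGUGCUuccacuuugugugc
miR-294-3p: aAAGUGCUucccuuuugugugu
miR-295-3p: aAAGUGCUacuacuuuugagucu
miR-302b-3p: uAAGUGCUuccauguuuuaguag
miR-302d-3p: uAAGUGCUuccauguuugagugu

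For the 5 detected members with a RefSeq sequence (miR-133b-3p, miR-192-5p, miR-194-5p, miR-203-3p and miR-302c-5p), 0 miRNAs outside the members shared the seed, among array names with a sequence. miR-133a-3p, miR-1a-3p and miR-375-3p were also detected and are among the 15 members without an entry in the table.

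Hippocampal arrays showed little of these families. The scanner software called 7 of the 63 members detected on all 9 arrays, another 1 on 3 arrays and 55 on none. The 7 stood in every condition: miR-1a-3p, miR-133a-3p and miR-133b-3p of muscle, miR-192-5p and miR-194-5p of liver and gut, miR-203-3p of skin, and miR-302c-5p of the pluripotency group. All 3 arrays of a group called 3 of 18 muscle members, 2 of 9 liver and gut members, 0 of 8 pancreas members, 1 of 4 skin members and 1 of 24 pluripotency members, and these counts were equal in all 3 groups. Over all mouse miRNAs, 424 (34.0%) were called on every array of a group or more, against 7 of 63 members (11.1%).

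The number of members detected per array was 7, 7 and 7 in the control group, 7, 8 and 8 at 1 mg/kg bw and 7, 8 and 7 at 5 mg/kg bw. By a two-sided exact permutation test, the difference from control was 0.667 at 1 mg/kg bw (p = 0.4) and 0.333 in the 5 mg/kg bw group (p = 1), in a design that cannot go below p = 0.1. The whole difference came from 1 member, miR-375-3p.

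**Figure D1:**
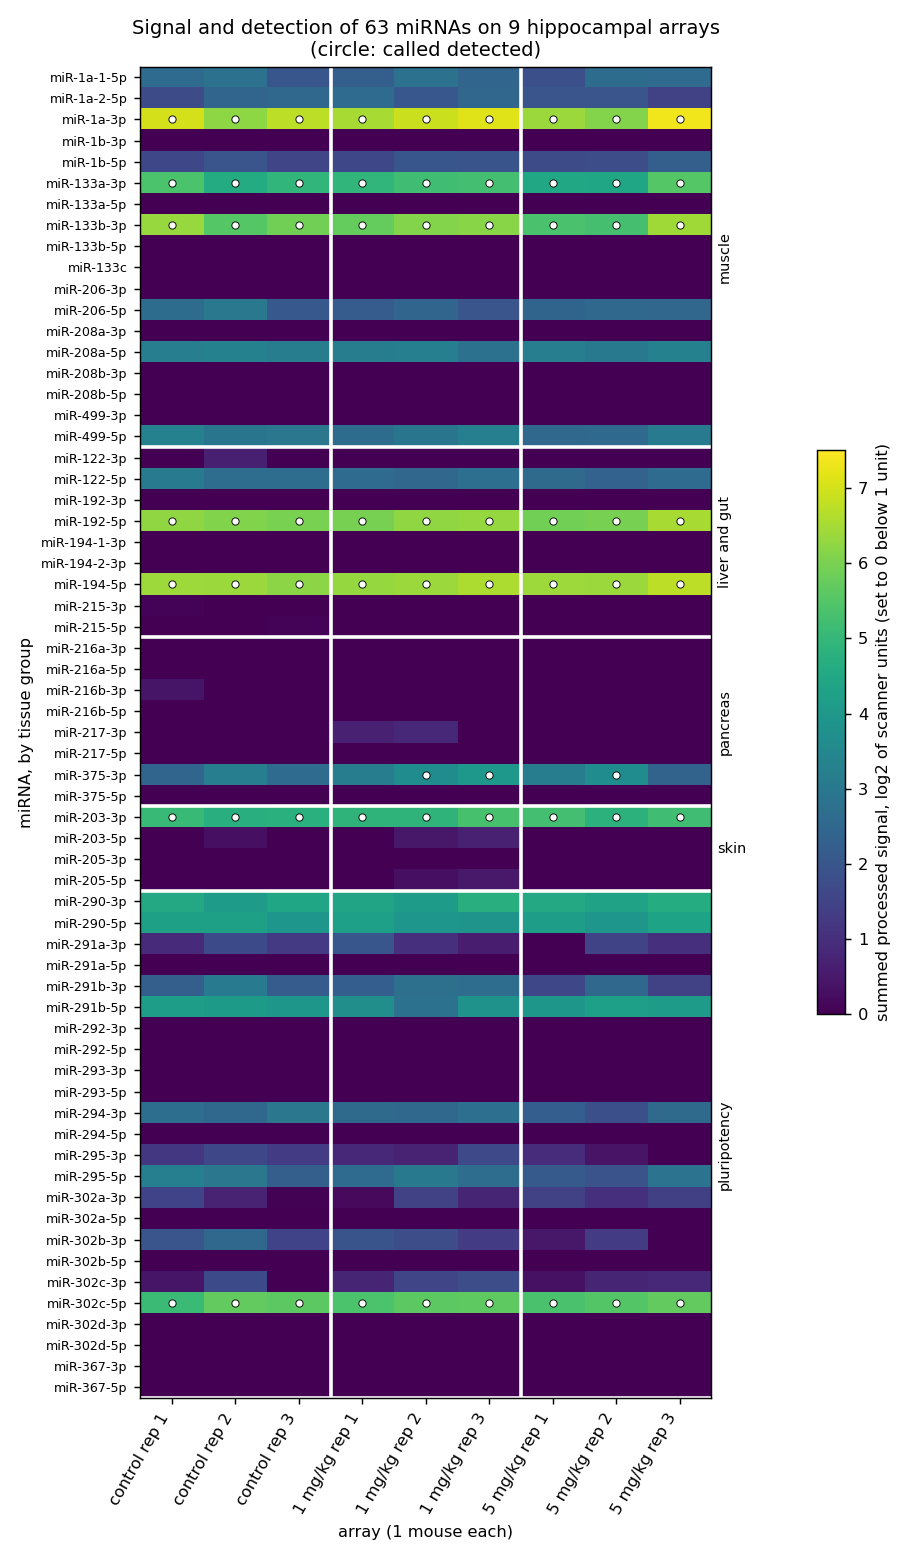
Summed processed signal of each of the 63 members (rows, by tissue group) on each of the 9 arrays (columns), as log2 of scanner units by colour, with a circle where the miRNA was called detected. The circles fill 7 rows across all arrays and 3 cells of the miR-375-3p row, and 55 rows have none.

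For every detected miRNA the opposite arm of its hairpin was not detected: miR-1a-1-5p, miR-1a-2-5p, miR-133a-5p, miR-133b-5p, miR-192-3p, miR-194-1-3p, miR-194-2-3p, miR-203-5p, miR-302c-3p and miR-375-5p were called on 0 of 9 arrays. Neighbours in the genome were split. miR-206-3p (chr1:20679055-20679076) shares the long noncoding RNA Lincmd1 with miR-133b (chr1:20682834-20682855) and was called on 0 arrays, with a summed signal from -2.20 to 0.929 scanner units, whereas miR-133b-3p ran from 39.3 to 85.6. Probes for miR-133b-3p and miR-133a-3p share a run of 17 bases, so that the miR-133b-3p signal cannot be assigned fully to this locus. miR-215-5p was called on 0 arrays, with a signal from -1.56 to 1.05 units.

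The heart and slow muscle miRNAs in myosin genes were also not detected. miR-208a lies within Myh6, miR-208b within Myh7 and miR-499 within Myh7b, and their arms miR-208a-3p, miR-208b-3p, miR-208b-5p and miR-499-3p had signals no higher than -2.30 units on any array. The other 2 arms were brighter without a call. miR-208a-5p had 6.90 to 9.82 units, below the array's lowest detected signal on 0 of 9 arrays, and miR-499-5p, the arm abundant in heart, 5.66 to 9.89 units, below it on 5. miR-122-5p, of hepatocytes, had 5.10 to 8.37 units, miR-205-5p, of epithelium, -2.12 to 1.41, and miR-217-5p, of pancreatic acini, -14.4 to -9.77. Negative values are spots dimmer than the background that the software subtracted.

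Over the 55 members never detected, the summed signal ran from -14.4 to 26.8 units, with a median of -0.701. The lowest signal that was called detected lay between 5.99 and 8.10 units, depending on the array. The highest values belonged to miR-290-3p, with 17.2 to 26.8 units over its 4 probes and not 1 detection call, and at most 2.5% of its spots on an array stood well above background. miR-290-5p, miR-291b-5p and miR-208a-5p likewise had sums above the array's lowest detected signal on all 9 arrays without a call. For members without a call, the signal gives a bound and not a level of 0.

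miR-367-3p (chr3:127545779-127545800) was not detected, with -1.23 to 0.445 units, but of the 5 other miRNAs found with its seed, chosen here after their values were seen, 3 were detected on all 9 arrays. These were miR-25-3p, miR-92a-3p and miR-92b-3p, of a family that is expressed in most tissues, whereas miR-32-5p and miR-363-3p were called on 0 arrays.
miR-367-3p: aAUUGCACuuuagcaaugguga
miR-25-3p: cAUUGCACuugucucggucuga
miR-92a-3p: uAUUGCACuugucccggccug
miR-92b-3p: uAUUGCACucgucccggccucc

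Markers of neurons and of other cell types were both present. The neuronal miR-124-3p, miR-9-5p, miR-128-3p, miR-132-3p and miR-138-5p were detected on all 9 arrays, the blood marker miR-451a and the vessel markers miR-126-3p, miR-143-3p and miR-145a-5p likewise, and of 8 markers of other epithelium 5 were detected on none. Of the choroid plexus markers, miR-204-5p and miR-211-5p were detected on all 9 arrays and miR-448-3p on 7. Their summed level was 307 to 488% of the 75th percentile of detected miRNAs in the control group. It was 536 to 874% at 1 mg/kg bw, without overlap, and 284 to 556% at 5 mg/kg bw. Most of that sum was miR-204-5p, with 1612 to 5175 scanner units, against 35.6 to 83.1 for miR-211-5p and 6.66 to 93.7 for miR-448-3p. Taken singly, miR-204-5p and miR-448-3p did not overlap between control and 1 mg/kg bw, and miR-211-5p did. Of all tested miRNAs, 12.3% did not overlap there. Of the 3 blood markers, 2 are on the array (miR-451a and miR-144-3p). Their summed level was 290 to 369% in the control group and 298 to 351% at 1 mg/kg bw. At 5 mg/kg bw it was 377 to 408% and did not overlap with the others. That sum was nearly all miR-451a (1558 to 2429 units), since miR-144-3p had 11.9 to 28.7 units and overlapped between all groups. Against control and against 1 mg/kg bw, 16% and 7.31% of all tested miRNAs did not overlap at 5 mg/kg bw. The part of these tissues in the members' values was not tested. Between 410 and 436 miRNAs were detected per array, 0 of 49880 spots were saturated, and no array was a copy of another. Processed signals were scaled to the 75th percentile of the miRNAs detected on all arrays, so that a log2 normalized signal of 0 is the level of that percentile. The first row of slide 1 held all control arrays together with 1 mg/kg bw replicate 1. Its second row held replicates 2 and 3 of the 1 mg/kg bw group with replicates 1 and 2 of the 5 mg/kg bw group, and slide 2 carried 5 mg/kg bw replicate 3 only. Slide position and dose thus overlap in part.

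Of the 7 tested members, 0 differed between any 2 groups at an unadjusted p under 0.05 (limma on 424 miRNAs). The background was 33 of 424 (7.78%) for 1 mg/kg bw against control, 40 of 424 (9.43%) for 5 mg/kg bw against control and 16 of 424 (3.77%) for 5 mg/kg bw against 1 mg/kg bw. The groups overlapped for all 7 members in all 3 comparisons, where 12.3%, 16% and 7.31% of all tested miRNAs did not overlap. The median log2 change of the members was -0.02 at 1 mg/kg bw (all tested miRNAs -0.03) and -0.09 with 5 mg/kg bw (all tested miRNAs -0.0035). The smallest adjusted p of a member was 0.711, for miR-133b-3p at 5 mg/kg bw (Benjamini-Hochberg over 424).

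**Figure D2:**
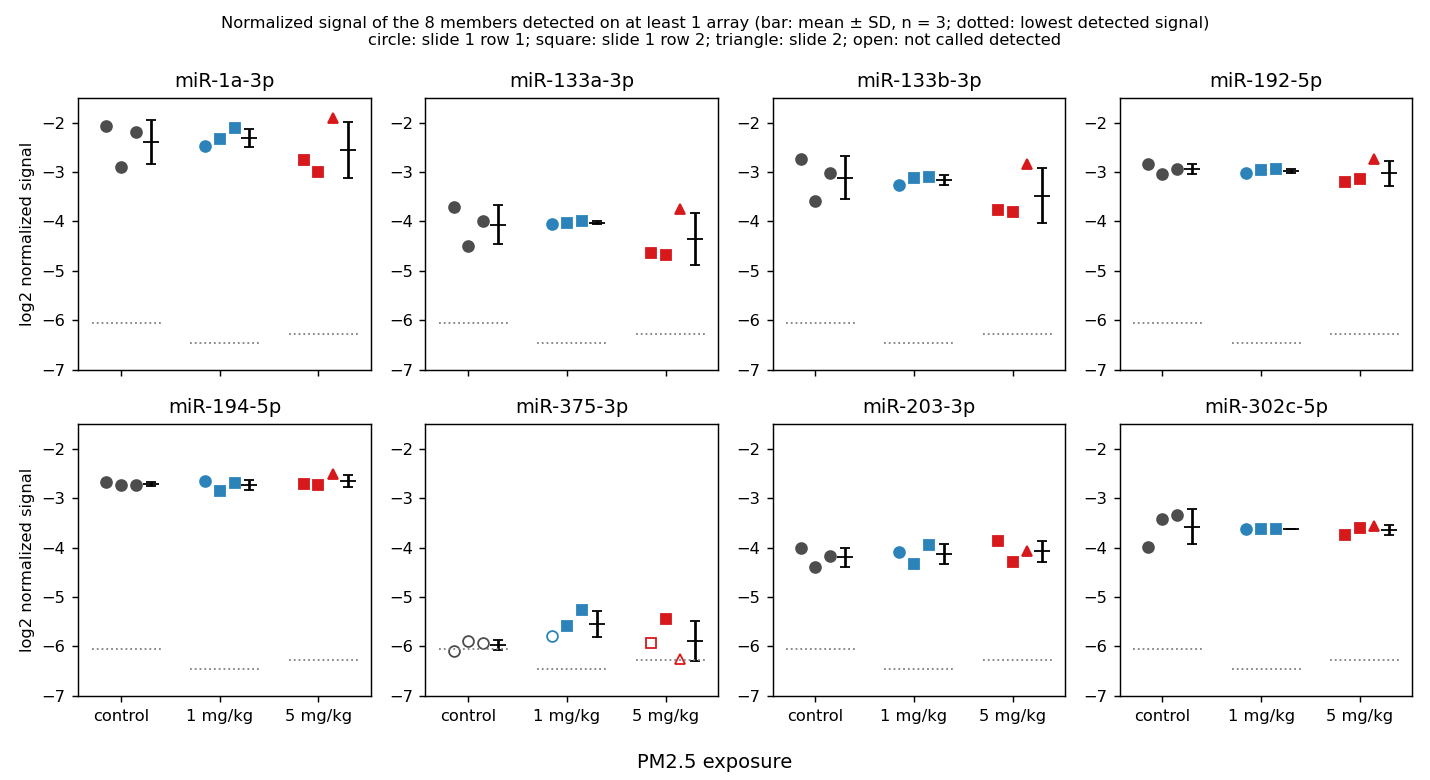
Log2 normalized signal of the 8 members detected on at least 1 array, by PM2.5 exposure, with 1 point per mouse, the mean ± SD of 3 mice, and a dotted line at the mean of the arrays' lowest detected signals. The 3 groups overlap for each of the 7 tested members, and the points of miR-375-3p lie near the dotted line.

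miR-1a-3p, among the most abundant miRNAs of heart and skeletal muscle, had log2 normalized signals of -2.06, -2.90 and -2.20 in the control mice, -2.47, -2.33 and -2.12 at 1 mg/kg bw and -2.75, -2.99 and -1.91 at 5 mg/kg bw. Its lowest and its highest value both fell in the 5 mg/kg bw group. The change was 0.08 at 1 mg/kg bw (SE 0.30, adjusted p = 0.948, limma) and -0.16 at 5 mg/kg bw (SE 0.30, adjusted p = 0.884).

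miR-133a-3p, which acts with miR-1 in muscle differentiation, had -3.72, -4.49 and -4.00 in the control mice, -4.05, -4.04 and -4.00 at 1 mg/kg bw and -4.65, -4.67 and -3.75 at 5 mg/kg bw. The closely related miR-133b-3p had -2.73, -3.58 and -3.03, then -3.27, -3.11 and -3.09, then -3.77, -3.81 and -2.84, in the same order. Replicates 1 and 2 at 5 mg/kg bw were the lowest arrays for both, and replicate 3 was among the 2 highest. The changes at 5 mg/kg bw were -0.29 for miR-133a-3p (SE 0.27) and -0.37 for miR-133b-3p (SE 0.29), and the 95% confidence interval of the latter ran from 0.493 to 1.22 as a fold. The longest run of bases shared by a probe of each is 17, out of probes of 17 to 19 bases, so that the array cannot separate these miRNAs fully.

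Leaving out 1 array changed these calls. Without 5 mg/kg bw replicate 3, the only array of slide 2, the change against control was -0.59 for miR-133a-3p (95% confidence interval -1.04 to -0.15), -0.68 for miR-133b-3p (-1.18 to -0.18) and -0.23 for miR-192-5p (-0.42 to -0.046), each with an adjusted p of 0.165 (limma). These 3 of 7 members were at an unadjusted p under 0.05, while 28.3% of all 424 miRNAs were in the same fit. Against 1 mg/kg bw, miR-1a-3p was too (-0.56, from -1.12 to -0.0069), which makes 4 of 7 members beside 8.25% of all tested miRNAs, with an adjusted p of 0.494 for all 4. These 4 moved together over the 9 arrays, with r from 0.871 to 0.990 between them, and are not 4 separate results. The smallest adjusted p of a tested member under any setting tried was 0.155 (limma), for a rise of miR-133b-3p (4.53) at 5 mg/kg bw against control. That setting used the software's miRNA totals, which for miR-133b-3p held another miRNA's total on 2 arrays, as described below. With slide row as a block instead, the changes at 5 mg/kg bw against control were 0.0044 for miR-133a-3p and 0.074 for miR-1a-3p, and that of miR-133b-3p stayed negative. This block counts 5 mg/kg bw replicate 3, although on slide 2, with the first row of slide 1, the only row with control arrays.

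miR-192-5p, an epithelial miRNA that p53 induces, had -2.84, -3.03 and -2.95 in the control mice, -3.02, -2.96 and -2.95 at 1 mg/kg bw and -3.21, -3.14 and -2.73 at 5 mg/kg bw. Its order over the 5 mg/kg bw arrays was that of the muscle miRNAs in part, with replicate 3 on top. The changes were -0.04 and -0.09 (SE 0.12 each), in that order of dose.

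miR-194-5p, transcribed with miR-192 and with miR-215, had -2.67, -2.74 and -2.74, then -2.66, -2.85 and -2.69, then -2.72, -2.73 and -2.51. It varied least among the 7, with a highest over lowest ratio of 1.27 over the 9 arrays. Its change at 5 mg/kg bw was 0.06 (SE 0.09), with a 95% confidence interval from 0.912 to 1.20 as a fold.

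miR-203-3p, which restrains proliferation of skin progenitors, had -4.01, -4.40 and -4.17 in the control mice, -4.10, -4.34 and -3.95 at 1 mg/kg bw and -3.86, -4.30 and -4.07 at 5 mg/kg bw. Its changes were 0.06 and 0.11 (SE 0.15 each). The 3 groups covered nearly the same range.

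**Figure D3:**
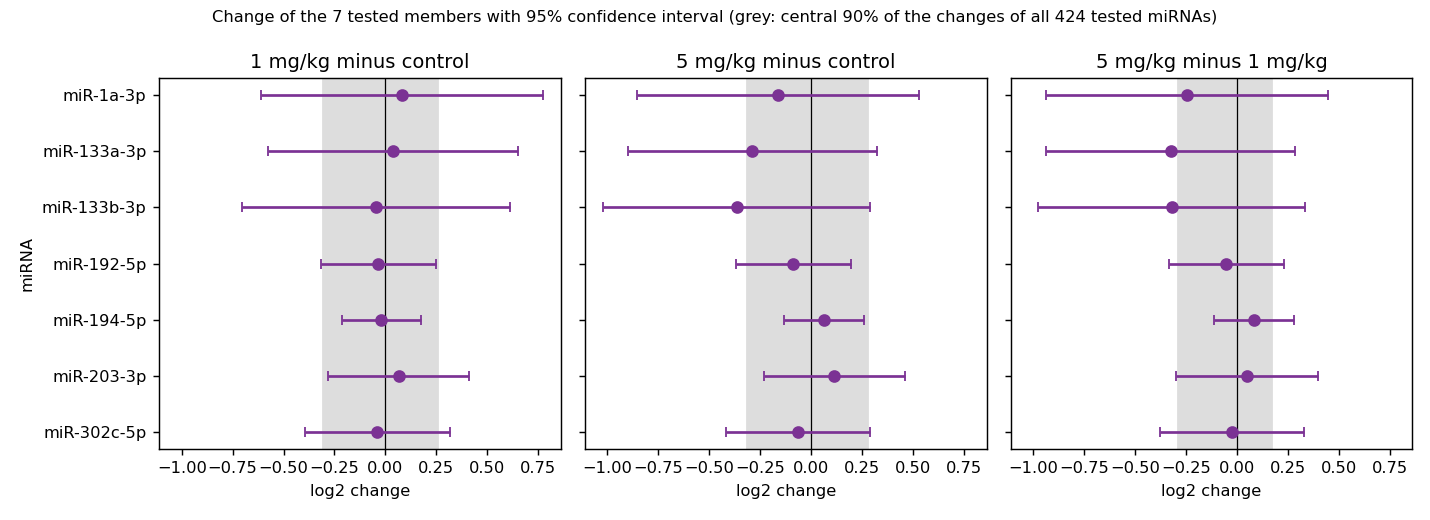
Log2 change of each of the 7 tested members in the 3 comparisons (points) with its 95% confidence interval (bars), over a grey band that holds the central 90% of the changes of all 424 tested miRNAs. All 21 intervals include 0, and those of the 3 muscle miRNAs are the widest.

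The muscle miRNAs varied from mouse to mouse more than most miRNAs. The residual SD within groups was 0.43 for miR-1a-3p, 0.38 for miR-133a-3p and 0.41 for miR-133b-3p on the log2 scale, above that of 94.8%, 92.5% and 94.3% of the tested miRNAs, whose median was 0.14. Over the 9 arrays, the highest level was 2.12 times the lowest for miR-1a-3p, 1.94 times for miR-133a-3p and 2.12 times for miR-133b-3p, against a median of 1.37 times over all tested miRNAs. The values for miR-192-5p, miR-203-3p and miR-302c-5p were 1.39, 1.45 and 1.56 times.

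This variation was shared. Over the 9 mice, miR-1a-3p and miR-133a-3p, whose probes were designed to different sequences, had Pearson's r = 0.950 and Spearman's rho = 0.967 (exact permutation, p = 0.00035 and 0.000165, adjusted p = 0.00147 and 0.00116 over 21 pairs of tested members). Without the 2 arrays farthest from the median, r was 0.920, and within the first and the second row of the slides it was 0.967 and 0.959. The pair miR-133a-3p and miR-133b-3p had r = 0.990, with probes that share most of their bases. miR-192-5p followed them with r = 0.871 to miR-1a-3p, 0.919 to miR-133a-3p and 0.924 to miR-133b-3p, and within rows between 0.828 and 0.967. These 6 pairs were the ones at an adjusted p under 0.05, and the other 15 had r between -0.524 and 0.541. Among all 89676 pairs of tested miRNAs 2.74% had r of at least 0.87. To miR-133b-3p, 5 of 423 miRNAs had an r at or above that of miR-192-5p, a count that includes miR-192-5p, miR-133a-3p and miR-1a-3p. Outside the members, miR-423-5p (r = 0.965), miR-181b-5p (0.963), miR-338-3p (0.935) and miR-34a-5p (0.934) were closer to miR-192-5p than any muscle miRNA was. All values share the scaling factor of their array.

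On average over the 3 muscle miRNAs, 5 mg/kg bw replicates 2 and 1 and control replicate 2 lay lowest, at -0.56, -0.45 and -0.38 from the mean of the 9 arrays, and 5 mg/kg bw replicate 3 and control replicate 1 highest, at 0.44 and 0.44. Other epithelial markers moved over the same arrays in part. Of the 8 fixed, miR-200a-3p, miR-200b-3p and miR-429-3p were each detected on 8 arrays and miR-200c-3p, miR-141-3p, miR-182-5p, miR-183-5p and miR-96-5p on 0. The summed level of the 8 ran from 17.1 to 28.6% of the 75th percentile in the control group, 9.22 to 29.8% at 1 mg/kg bw and 2.93 to 31.3% at 5 mg/kg bw. The mean of the 3 detected ones was highest in 5 mg/kg bw replicate 3 (1.08) and control replicate 1 (0.94) and lowest in 5 mg/kg bw replicate 1 (-1.93). In that last array, miR-200a-3p and miR-200b-3p were set to its lowest detected signal. In control replicate 2 the mean was 0.13, against -0.38 for the muscle miRNAs. At 1 mg/kg bw it was -0.66, -0.59 and 0.90, against 0.0070, 0.11 and 0.20. The part of the epithelial markers in the spread of the muscle miRNAs was not tested.

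**Figure D4:**
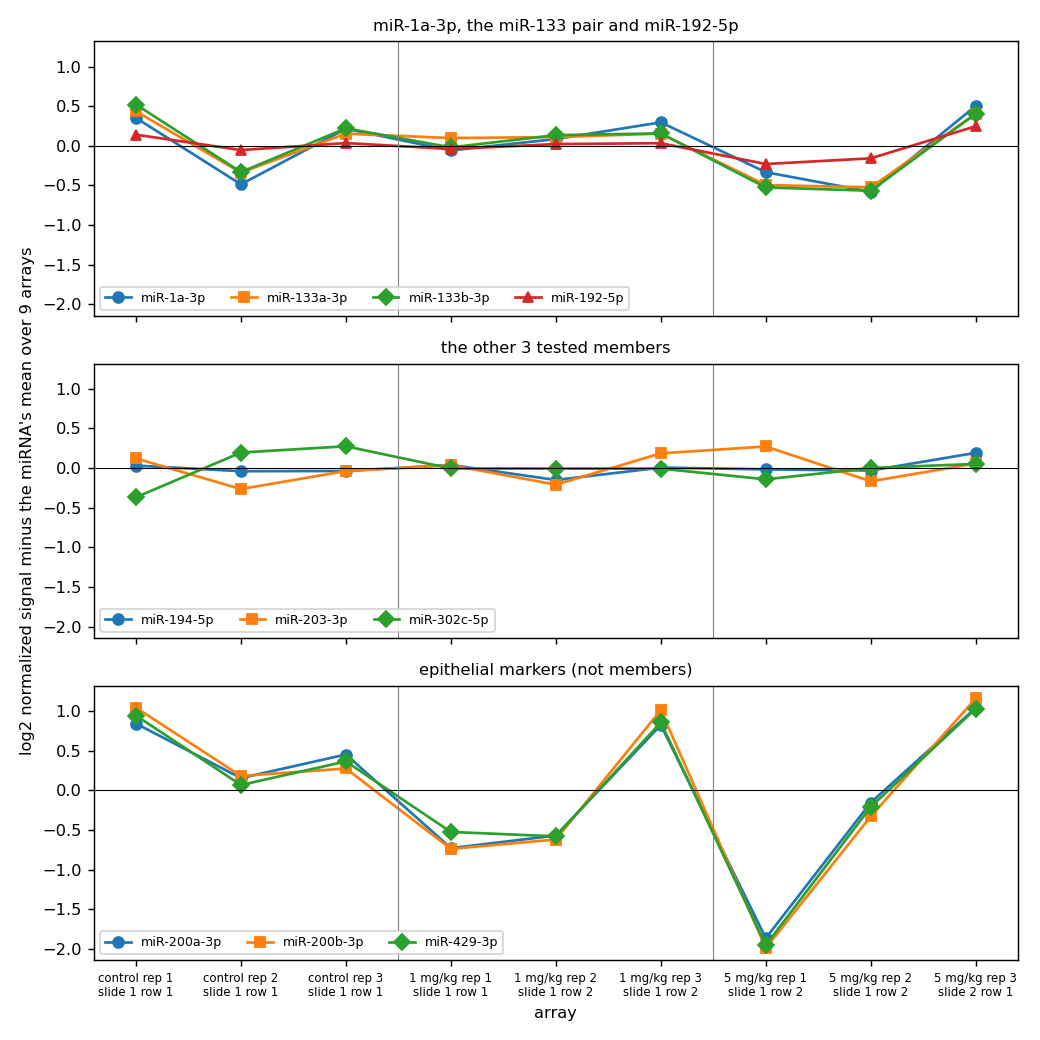
Log2 normalized signal of each miRNA minus its mean over the 9 arrays, for the muscle miRNAs with miR-192-5p (top), the other tested members (middle) and 3 epithelial marker miRNAs that are not members (bottom), with the array's group and slide position below. In the top panel the 4 lines run together and are lowest at 5 mg/kg bw replicates 1 and 2 and, for the muscle miRNAs, control replicate 2.

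The signal of miR-302c-5p came from its 2 shortest probes, and most of it from the shortest. The array holds 4 probes for it, nested in each other and complementary to the 3′ end of the miRNA, and the sequences are shown because the signal followed their length. Capitals mark the bases of the shortest probe.
11-base probe: GCAGGTAACCC
12-base probe: GCAGGTAACCCc
13-base probe: GCAGGTAACCCca
14-base probe: GCAGGTAACCCcat

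The 11-base probe had 28.9 to 41.4 scanner units over the 9 arrays, with most spots well above background on all 9. The 12-base probe had 5.63 to 17.4 units, passed on 5 arrays and had a total over 3 times its error on 8. The 13-base probe had -2.81 to 0.491 units and the 14-base probe -2.74 to 0.179 units, with most spots well above background on 0 arrays. All 4 are fully complementary to miR-302c-5p as RefSeq gives it. Of 423 tested miRNAs with nested probes, miR-302c-5p was the single one whose longest probe was at background on every array while a shorter one was above it on every array. Among the 1016 other array miRNAs with a RefSeq sequence, the longest run complementary to any of these probes was 7 bases, in miR-1930-5p, miR-216b-3p, miR-3058-5p and miR-409-5p, and RNAs other than miRNAs were not compared. The other 23 pluripotency members were called on 0 arrays.

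**Figure D5:**
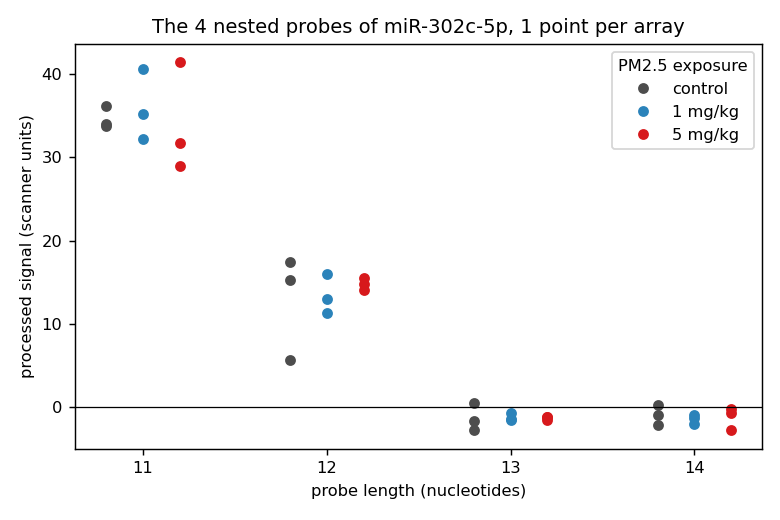
Processed signal in scanner units of the 4 nested miR-302c-5p probes against probe length, with 1 point per array and colours for PM2.5 exposure. The 11-base probe lies between 28.9 and 41.4 units in all groups and the 13- and 14-base probes lie at or below 0.491 units.

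As summed, miR-302c-5p had log2 normalized signals of -3.98, -3.41 and -3.33 in the control mice, -3.61, -3.62 and -3.62 at 1 mg/kg bw and -3.75, -3.61 and -3.56 at 5 mg/kg bw. Control replicate 1 lay below every other array. The changes were -0.04 and -0.06 (SE 0.16 each). Without control replicate 1 they were -0.24 (95% confidence interval -0.44 to -0.048) and -0.27 (-0.46 to -0.071), both at an unadjusted p under 0.05, as were 2.59% and 4.95% of all tested miRNAs. The adjusted p-values were 1.00 and 0.845 (limma).

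For the other 6 members detected on all 9 arrays, the longer probe had most spots well above background on every array. For miR-133a-3p, the 18-base probe had 17.5 to 37.5 units and passed on all 9 arrays, and the 17-base probe had 3.90 to 8.27 units and passed on 0. For miR-1a-3p the 21-base probe had 60.5 to 142 units, and for miR-203-3p the 18-base probe had 17.5 to 25.8. Both probes of miR-192-5p and of miR-194-5p passed on all 9 arrays. When a miRNA was required to have most of all its spots well above background, 5 members remained that passed on every array of a group or more, and miR-133a-3p and miR-302c-5p were not among them. Of the 5, miR-192-5p and miR-194-5p passed on 9 arrays, miR-1a-3p and miR-133b-3p on 8 and miR-203-3p on 7. In control replicates 2 and 3, miR-203-3p had 50% of its spots well above background and did not pass. The same count over all mouse miRNAs is not given here.

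miR-375-3p, which is abundant in pancreatic islets, was the single member with a detection that varied. Its summed signal was 5.46, 9.32 and 6.13 units in the control mice, 9.13, 12.5 and 16.0 at 1 mg/kg bw and 9.04, 12.6 and 5.19 at 5 mg/kg bw. It was called on 0 of 3 control arrays, on 1 mg/kg bw replicates 2 and 3 and on 5 mg/kg bw replicate 2. These 3 arrays lie in the second row of slide 1, which holds no control array, and the part of slide position was not tested. At most 17.5% of its spots stood well above background on an array, and since it was not detected on all 3 arrays of any group it was not tested for a change.

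The miRNA totals that the software wrote beside the spot values did not always hold the miRNA's own signal. For miR-133a-3p the total was 1779 to 3165 units on the 9 arrays, whereas the totals of its own probes that exceeded 3 times their error came to 6.34 to 13.6. On all 9 arrays the excess equalled the total of miR-132-3p, a neuronal miRNA that precedes it in name order among the detected ones, to within 0.01 units. For miR-133b-3p the totals were 2137 and 1855 units in 5 mg/kg bw replicates 1 and 2, of which the excess equalled the total of miR-133a-3p, and 17.0 to 31.0 on the other 7 arrays, with no excess. For miR-375-3p, all 3 totals, of 37.4 to 43.7 units, were larger than its own 3.12 to 4.02. Between 101 and 119 detected miRNAs per array had such an excess, and for all but 1 on each array it equalled the total of the detected miRNA before them in name order. The totals were therefore not used for the values above, and the log2 table that the authors deposited does not carry the excess for miR-133b-3p.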

How the data were processed

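Hippocampi of 9 mice were profiled for miRNA on 1-colour Agilent arrays, 1 array per mouse. Per the labels and the file headers, the authors extracted the scans with Feature Extraction 10.7, which gave the deposited intensity values per spot (processed, mean and background signal) and per-miRNA detection flags and totals, not normalized between arrays. The authors also deposited a table of log2 values, used as an alternative. Outlier and control spots were left out, spots were averaged per probe, probes summed per miRNA, arrays divided by their 75th percentile of miRNAs with a detection call on each of the 9 (492 to 614 units), values floored at the array's lowest detected signal, and log2 taken. limma 3.58.1 in R 4.3.3 was fitted over the 3 groups to the 424 miRNAs called on every array of a group or more, with Benjamini-Hochberg adjustment over all 424. Tested on simulated data for 5 mg/kg bw against control, it recovered 90.8% of 40 miRNAs given a log2 change of 1 among 424 at an adjusted p under 0.05. The 40 were drawn at random from all 424, whose median residual SD was 0.14. Recovery was not estimated for the muscle miRNAs, whose residual SD was 0.38 to 0.43. Named were every tested member, every member detected on any array, undetected members by range, and seed relatives. Members and lists were chosen with earlier results of these data known. Replicate numbers did not pair the mice (correlations of deviations from -0.648 to 0.738). The number of arrays limits the precision. The alternatives were other signals per miRNA, background corrections, scalings, filters, floors, weights, blocks and each array left out.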

Additional observations from a re-analysis of the deposited data

Results flagged for a closer look

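The total signal that the software gave for miR-133b-3p stood at 2137 units in 5 mg/kg bw replicate 1 and at 1855 units in 5 mg/kg bw replicate 2, whereas the highest control array had 29.9 units. This quantity was not used in the comparisons, and it stood out because it was above the control level in data outside them. In these 2 arrays the signal of the miRNA's own probes was 11.8 and 11.5 units, and the remainder equalled the total listed for miR-133a-3p to within 0.01 units. With the totals as deposited, the log2 change of miR-133b-3p at 5 mg/kg bw was 4.53 (limma, adjusted p = 0.155), and with totals rebuilt from its own probes, a step chosen after seeing the data, it was -0.58 (adjusted p = 0.682).

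miR-375-3p, a member outside the fit, was called detected on 3 arrays of exposed mice and on 0 control arrays. All 3 arrays lie in the second row of slide 1, and whether exposure or position goes with the call cannot be told apart there, since that row holds no control array. The same 3 arrays had the most miRNAs detected in all (433, 436 and 436), and the part of that was not tested.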

How the results depend on the processing

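Each member's calls were recomputed under 18 other settings and with each of the 9 arrays left out. No tested member reached an adjusted p under 0.05 in any of them (limma), and the smallest was 0.155, for miR-133b-3p with the deposited totals. Of the members' signs, 42 turned under another setting. Apart from the deposited totals, the largest such value was 0.22. The totals and no scaling moved the median of all tested miRNAs to 0.10 and 0.078 at 1 mg/kg bw and to 0.14 and 0.11 at 5 mg/kg bw. The cause of the other turns was not tested. The number of arrays limits the precision, and members near the lowest detected signal have only a bound.

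The number of members at an unadjusted p under 0.05, 0 in each comparison as reported, became 1 at 5 mg/kg bw against control and 1 against 1 mg/kg bw with the deposited totals (miR-133b-3p), 1 against 1 mg/kg bw with array quality weights (miR-133a-3p), and 3 and 4 with the slide as a block. Leaving out single arrays gave 0 to 1 at 1 mg/kg bw, 0 to 3 at 5 mg/kg bw and 0 to 4 between the doses. The arrays that changed a call were 5 mg/kg bw replicate 3 and control replicate 1. As slide 2 holds only 5 mg/kg bw replicate 3, the slide as a block gave the same fit as leaving out that array. Its counts, here and below, are not a separate result. Members called on every array of 1 or more groups were 7 to 8 with an array left out, and the differences in members detected per array were 0.5 to 1 at 1 mg/kg bw and 0 to 0.5 at 5 mg/kg bw.

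Over all tested miRNAs, the counts of 33, 40 and 16 became 70, 72 and 35 with array quality weights and 14, 17 and 9 with normexp. With slide row as a block they were 8 and 14 against control, with the slide as a block 120 at 5 mg/kg bw and 35 between the doses, and with the deposited totals 102 at 5 mg/kg bw. Without a filter, 780 of 1247 passed at 1 mg/kg bw, where undetected miRNAs sit at floors that differ between arrays. Leaving out single arrays gave 11 to 49, 21 to 120 and 8 to 35. The replicate number as a block, in which the mice share only a number, gave 36, 36 and 15, with 0 members in each comparison.

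Signs at 1 mg/kg bw turned as follows. With the deposited totals, miR-133a-3p was at -0.040, miR-133b-3p at 0.093, miR-192-5p at 0.10, miR-194-5p at 0.12 and miR-302c-5p at 0.17. With totals rebuilt from probes, chosen after seeing the data, miR-133a-3p was at -0.059 and miR-302c-5p at 0.020. With normexp, miR-133a-3p was at -0.053, miR-1a-3p at -0.00052 and miR-203-3p at -0.043, and with a pseudocount in place of the floor miR-133a-3p was at -0.040 and miR-203-3p at -0.019. Without scaling, miR-133b-3p was at 0.063, miR-192-5p at 0.074, miR-194-5p at 0.089 and miR-302c-5p at 0.069. With the percentile over all miRNAs, miR-192-5p was at 0.00015 and miR-194-5p at 0.016. With slide row as a block, miR-133b-3p was at 0.22, miR-192-5p at 0.089, miR-194-5p at 0.089 and miR-302c-5p at 0.0013. With the deposited log2 table miR-133a-3p was at -0.0060 and miR-302c-5p at 0.041, with quantile normalization miR-302c-5p was at 0.027, and with array quality weights miR-133b-3p was at 0.055.

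At 5 mg/kg bw against control, the deposited totals gave 0.11 for miR-133a-3p, 4.53 for miR-133b-3p, 0.069 for miR-192-5p and 0.16 for miR-302c-5p, and against 1 mg/kg bw 0.15 for miR-133a-3p and 4.43 for miR-133b-3p. The totals of miR-133a-3p and miR-133b-3p hold another miRNA's total. Against control, normexp gave -0.013 for miR-194-5p and -0.036 for miR-203-3p, no scaling 0.026 for miR-192-5p and 0.050 for miR-302c-5p, slide row as a block 0.0044 for miR-133a-3p, 0.037 for miR-192-5p and 0.074 for miR-1a-3p, and the slide as a block -0.0088 for miR-194-5p. The deposited log2 table gave 0.046 for miR-302c-5p against control and 0.0045 against 1 mg/kg bw.

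With each array left out, the changes at 1 mg/kg bw ran from -0.18 to 0.24 for miR-1a-3p, -0.17 to 0.21 for miR-133a-3p, -0.28 to 0.15 for miR-133b-3p, -0.083 to 0.014 for miR-192-5p, -0.057 to 0.038 for miR-194-5p, -0.037 to 0.17 for miR-203-3p and -0.24 to 0.080 for miR-302c-5p. At 5 mg/kg bw they ran from -0.48 to 0.059 for miR-1a-3p, -0.59 to -0.11 for miR-133a-3p, -0.68 to -0.17 for miR-133b-3p, -0.23 to 0.0040 for miR-192-5p, -0.0088 to 0.10 for miR-194-5p and -0.27 to 0.056 for miR-302c-5p. Between the doses they ran from -0.20 to 0.040 for miR-192-5p, -0.059 to 0.16 for miR-203-3p and -0.065 to 0.032 for miR-302c-5p.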
